A study of Mus musculus with 16 samples.

Results

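Solute carriers are membrane proteins that move amino acids, sugars, nucleotides, ions, metals and vitamins across the plasma membrane and the membranes of organelles. They are numbered by family, and members of 1 family usually share a fold and a related set of substrates. In blood progenitors they supply growing cells with nutrients, and the carriers of the inner mitochondrial membrane pass ADP, ATP, phosphate and metabolites between mitochondria and cytosol. The genes described here are those whose symbol starts with Slc and a number and which were chosen by a measured value, a mean of at least 50 in the tables of both populations. The mean is the DESeq2 normalized count averaged over all libraries of a population. Of 369 such symbols, 156 met the rule, out of 23420 gene rows in each table. Of the other Slc symbols, 7 reached the mean in GMP alone, 13 in MPP alone and 193 in neither. Just inside the minimum lay Slc35f2 (mean 52.6 in GMP), Slc39a3 (54.0 in GMP) and Slc38a6 (54.4 in GMP), and just outside lay Slc7a7 (49.9 in GMP), Slc4a8 (49.2 in MPP) and Slc25a21 (48.2 in MPP).

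RNA was sequenced from progenitors sorted from the bone marrow of mice aged 40 weeks. The groups were granulocyte-monocyte progenitors (GMP, sorted as Kit-positive and CD16/32-positive cells without lineage markers, Sca1 or CD150) labelled Tet2KO, with the genotype Tet2-/-, and GMP labelled WT, with the genotype Tet2fl/fl, and likewise multipotent progenitors (MPP, sorted as cells with Kit, Sca1 and CD48 but without lineage markers or CD150) labelled Tet2KO (Tet2-/-) and MPP labelled WT (Tet2fl/fl), with 4 libraries from individual mice in each. The controls thus carry the floxed allele, and the Cre line that deleted Tet2 is not given in the sources used here. Tet2 encodes an enzyme that oxidizes methylated cytosine in DNA. Of the 4 mice per genotype and population, 3 gave both GMP and MPP.

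Primary granule genes, which mark GMP, summed to 24219 ppm in GMP (ppm, parts per 1000000 of the summed means of a table) and to 3840 in MPP. Multipotent progenitor genes summed to 1475 in GMP and 3203 in MPP. Each sum was thus higher in the population it marks. Mpo had the largest mean of the first list, 200049 in GMP and 23699 in MPP, and weighs most in its sums. The second list includes Kit and Cd48, on which cells were sorted. The gene-level value of Tet2 was higher in libraries labelled Tet2KO, at 0.35 in GMP and 0.44 in MPP on the log2 scale by the authors' deposited table, and it does not show whether exons are missing. Directions therefore rest on the labels and on the names of the tables. Values per library are not part of the tables, so levels below are means over both genotypes, and the error of each change is the standard error (SE) from the 8 libraries of a population. All log2 fold changes are Tet2KO over WT. In bulk RNA, a smaller share of a cell type and less RNA per cell cannot be told apart.

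Of the 151 members with an adjusted p in GMP, 7 were called at an adjusted p of 0.05, 4 higher and 3 lower in Tet2KO (4.64%). The other 5 members in GMP (Slc14a1, Slc15a2, Slc40a1, Slc7a1, Slc7a5) and 5 in MPP (Slc15a2, Slc16a1, Slc25a4, Slc25a5, Slc40a1) were marked as outliers and have no p. Over all 11503 genes tested in GMP 3.96% were called, 1.75% higher and 2.22% lower, so the members' share lay near that of all genes. Of the 151 members tested in MPP none was called, against 0.616% of all 11859 genes. At an unadjusted p under 0.05, GMP had 16 members higher and 11 lower, against 7.73% and 8.68% of all genes in these directions and 16.4% in all. MPP had 6 higher and 8 lower, against 4.92%, 4.8% and 9.72%. The median log2 fold change of the 156 members was -0.0045 in GMP and 0.0057 in MPP, beside -0.010 and -0.0093 for all 9536 genes with such means. Only 2 members in GMP and 4 in MPP lay beyond 0.5 in either direction.

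**Figure D1:**
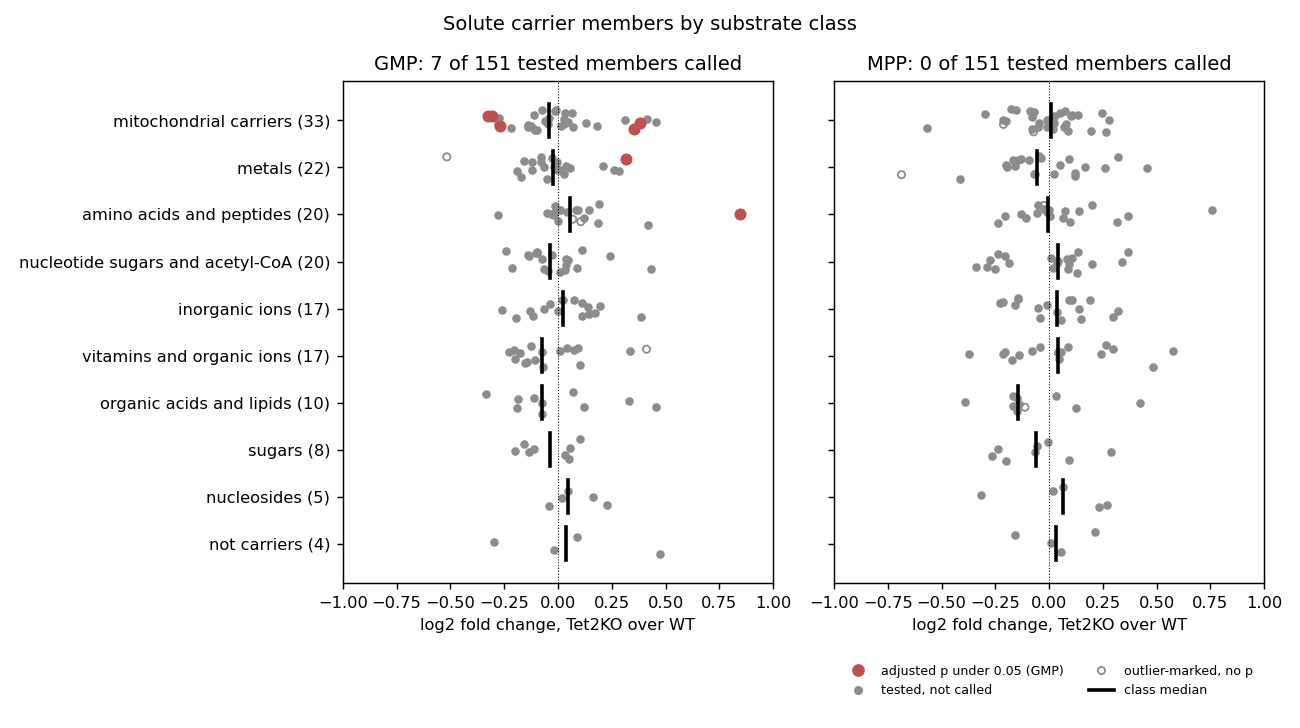
Log2 fold change (Tet2KO over WT) of the 156 members by substrate class, GMP on the left and MPP on the right, with the number of members in parentheses. Points are genes, filled red where called, open where marked as outliers, and black bars are class medians; the 7 called members are all in GMP, 5 of them mitochondrial carriers, and every class median lies within 0.15 of 0.

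The 7 called members were 5 mitochondrial carriers, an amino acid transporter and a magnesium transporter. The largest change was that of Slc6a15 (chromosome 10, 103367783 to 103419377, plus strand, mm10), a sodium-coupled transporter of neutral amino acids such as leucine and proline, which rose by 0.84 in GMP (adjusted p = 0.00159, SE 0.195; 1.80-fold), by the authors' deposited table. In MPP its value was 0.76 (adjusted p = 0.234, SE 0.272), with a 95% interval of 0.22 to 1.29. It was a weakly expressed member, with a mean of 87.9 in GMP and 130.5 in MPP. Slc41a1 (chromosome 1, 131827493 to 131848865, plus strand), a magnesium transporter of the plasma membrane, rose by 0.31 in GMP (adjusted p = 0.0220, SE 0.0912) by the authors' deposited table, beside 0.16 (adjusted p = 0.785, SE 0.149) in MPP.

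Among mitochondrial carriers, the 2 most highly expressed fell in GMP. Slc25a5 (chromosome X, 36795651 to 36798807, plus strand), the ADP/ATP translocase that hands new ATP to the cytosol, fell by 0.33 in GMP (adjusted p = 0.0148, SE 0.0904) by the authors' deposited table, a decrease of 20.3%. In MPP its value was -0.21 (SE 0.163), marked as an outlier and without a p. Slc25a3 (chromosome 10, 91116574 to 91124059, minus strand), which imports the phosphate for ATP synthesis, fell by 0.31 in GMP (adjusted p = 0.00178, SE 0.0713) by the authors' deposited table. Its MPP value was as low, at -0.30 (adjusted p = 0.203, SE 0.103), and was not called there. Slc25a11 (chromosome 11, 70644196 to 70647479, minus strand), the oxoglutarate and malate carrier of the malate-aspartate shuttle, fell by 0.27 in GMP (adjusted p = 0.0422, SE 0.0847) by the authors' deposited table, beside 0.02 (adjusted p = 0.976, SE 0.114) in MPP. After recentring on the median of all genes its adjusted p in GMP was 0.0549.

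Another pair of mitochondrial carriers rose in GMP. Slc25a23 (chromosome 17, 57043711 to 57059863, minus strand), a calcium-activated carrier that exchanges ATP-Mg for phosphate, rose by 0.38 (adjusted p = 0.00791, 95% interval 0.19 to 0.58), and Slc25a45 (chromosome 19, 5877808 to 5885878, plus strand) by 0.35 (adjusted p = 0.0217, SE 0.102), by the authors' deposited table. In MPP they had 0.13 (adjusted p = 0.782, SE 0.121) and 0.20 (adjusted p = 0.782, SE 0.175). Dividing every statistic by the robust spread of all statistics in GMP, 1.35, left none of the 7 called, with adjusted p-values of 0.142 to 0.524.

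**Figure D2:**
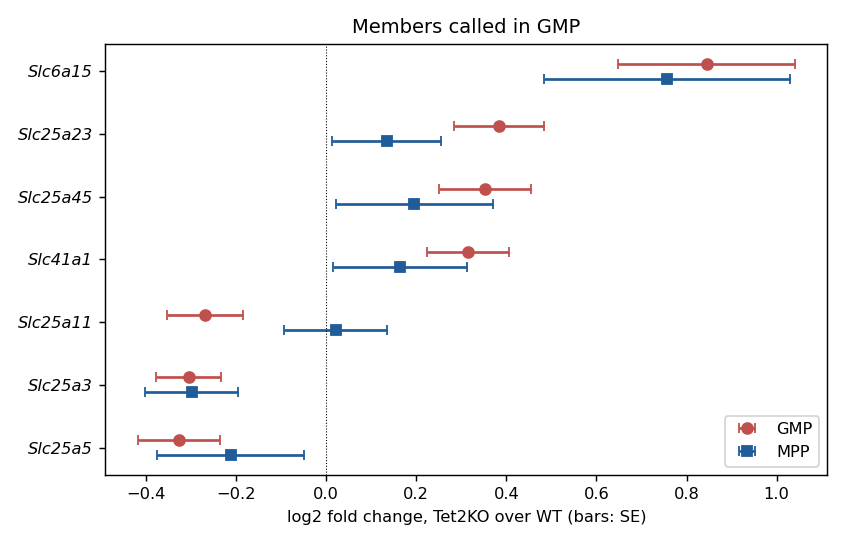
Log2 fold change (Tet2KO over WT) of the 7 members called in GMP, as points with SE bars, for GMP (red circles) and MPP (blue squares). The 4 members that rose in GMP also have positive values in MPP, and of the 3 that fell, Slc25a11 alone has an MPP value just above 0.

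Some called members share sequence with other genes. An exon stretch of 189 bases of Slc25a11, 8.92% of its exon length, overlaps Rnf167 on the opposite strand, and 168 bases of Slc25a23 (3.17%) overlap the antisense gene Gm17168. Whether counting used strand is not given in the sources used here, so reads in these stretches could belong to either gene. The annotation holds 1 pseudogene named after Slc25a5, a gene with near-identical copies, so its value is uncertain to that extent.

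The promoters of the 5 called mitochondrial carriers are shown because TET2 acts on methylated cytosine, most of which lies in CpG dinucleotides, and because these carriers of 1 family moved in opposite directions. Each is a RefSeq window set as 250 bases before to 50 after a start (GRCm38.p6, the mm10 assembly). It is written 5′ to 3′ on the gene's strand, with each CpG in capitals. These starts can differ from the gene positions given above, which come from GENCODE M21. The Slc25a11 window lies inside that gene's span, and the Slc25a5 window ends just before the gene start. The windows are thus not placed alike relative to those positions. No window of Slc6a15 was in the table, and for Slc25a23 the more upstream of 2 windows is shown.
Slc25a5, chrX:36795347-36795646, plus strand, 18 CpG: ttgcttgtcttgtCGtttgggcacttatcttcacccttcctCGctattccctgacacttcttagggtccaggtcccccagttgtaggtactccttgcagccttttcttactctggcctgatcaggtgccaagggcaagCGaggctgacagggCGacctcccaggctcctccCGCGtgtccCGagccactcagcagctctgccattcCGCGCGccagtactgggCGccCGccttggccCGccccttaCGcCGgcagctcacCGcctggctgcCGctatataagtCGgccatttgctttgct
Slc25a3, chr10:91123918-91124217, minus strand, 31 CpG: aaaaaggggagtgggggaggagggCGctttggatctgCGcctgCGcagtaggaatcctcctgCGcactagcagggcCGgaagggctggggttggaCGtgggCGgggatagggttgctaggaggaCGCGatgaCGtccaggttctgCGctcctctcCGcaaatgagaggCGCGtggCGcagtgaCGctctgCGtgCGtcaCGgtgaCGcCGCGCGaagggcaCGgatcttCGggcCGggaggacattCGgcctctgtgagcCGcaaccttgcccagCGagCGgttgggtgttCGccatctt
Slc25a11, chr11:70646990-70647289, minus strand, 24 CpG: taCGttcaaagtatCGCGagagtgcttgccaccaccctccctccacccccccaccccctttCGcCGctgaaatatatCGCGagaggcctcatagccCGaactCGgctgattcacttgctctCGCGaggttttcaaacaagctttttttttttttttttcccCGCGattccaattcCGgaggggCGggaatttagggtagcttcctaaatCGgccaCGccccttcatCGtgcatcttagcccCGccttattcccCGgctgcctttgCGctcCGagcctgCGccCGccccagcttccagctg
Slc25a23, chr17:57059814-57060113, minus strand, 14 CpG: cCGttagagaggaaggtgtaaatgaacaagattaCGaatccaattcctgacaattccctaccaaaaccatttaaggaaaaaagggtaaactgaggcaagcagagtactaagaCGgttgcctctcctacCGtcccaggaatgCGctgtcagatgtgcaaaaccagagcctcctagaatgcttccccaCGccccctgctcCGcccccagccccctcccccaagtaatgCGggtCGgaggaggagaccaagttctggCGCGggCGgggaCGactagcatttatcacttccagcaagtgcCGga
Slc25a45, chr19:5877572-5877871, plus strand, 7 CpG: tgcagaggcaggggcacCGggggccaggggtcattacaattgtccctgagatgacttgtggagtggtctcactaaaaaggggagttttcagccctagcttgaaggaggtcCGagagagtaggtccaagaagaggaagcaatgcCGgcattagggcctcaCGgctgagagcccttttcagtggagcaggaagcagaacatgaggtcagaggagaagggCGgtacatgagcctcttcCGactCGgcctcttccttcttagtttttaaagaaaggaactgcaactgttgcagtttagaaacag

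The 3 carriers that fell had 18, 31 and 24 CpG in these windows, against 14 for Slc25a23 and 7 for Slc25a45, which rose. Slc41a1, which also rose, had 19, in a window (chr1:131827762-131828061) that lies wholly after the gene start given above. The median was 22 over 7788 genes with a mean of at least 50 and a window (7771 different windows, since some symbols map to the same window), 20.5 over the 118 members with one and 19 over 25 mitochondrial carriers. Among members with at least 22 CpG the median log2 fold change in GMP was -0.029 (57 genes), and among those with fewer it was 0.018 (61 genes). Over all genes these medians were -0.012 and -0.0053. Within the mitochondrial carriers they were -0.060 (12 genes) and -0.063 (13 genes), so the class as a whole did not show the order of its called members. The E-box CACGTG, searched on both strands (it is its own reverse complement), was present in 15.3% of the members' windows and 10.9% of the 7771 windows of all such genes, and in none of the 6 windows of called members. The consensus of NRF1, an activator of mitochondrial genes, was in 0.847% and 2.41% as an exact match, the palindromic cAMP response element TGACGTCA in 2.54% and 3.55%, and the ATF-C/EBP composite site TGATGCAA, on either strand, in 0.847% and 0.553%. None of these motifs, in the exact spelling searched, was in the windows of the called members either. For NRF1 the search used a fixed spelling without variable bases. The Slc25a3 window shown above holds a close variant of that spelling, which was not counted. The search therefore does not show that NRF1 sites are absent from these windows, and the NRF1 percentages leave such variants out. Methylation was not measured in these libraries.

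The 33 mitochondrial carriers (family Slc25) were the largest class, and the 5 calls among them in GMP were 15.2% of those tested, beside 3.96% of all genes. The class was singled out with these calls known, so the share is a description and has no test. The class was spread to both sides, with 14 above and 19 below 0, a median of -0.040 and quartiles of -0.13 and 0.066 in GMP. In MPP the median was 0.0094, with 17 above and 16 below 0. Of the 2 ADP/ATP translocases that were members, Slc25a5 fell in GMP, while Slc25a4 had 0.03 (adjusted p = 0.929, SE 0.0910) there. Among aspartate-glutamate carriers of the shuttle in which Slc25a11 works, Slc25a13 had -0.28 (adjusted p = 0.111, SE 0.104) and Slc25a12 -0.06 (adjusted p = 0.747, SE 0.0740) in GMP, by the authors' deposited table. Of the calcium-activated ATP-Mg carriers related to Slc25a23, Slc25a24 had -0.11 and Slc25a25 -0.10 in GMP, neither called.

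The highest value of the family in GMP was that of Slc25a22, a glutamate carrier, at 0.46 (adjusted p = 0.0654, SE 0.154) by the authors' deposited table, followed by Slc25a42, a coenzyme A carrier, at 0.41 (adjusted p = 0.248, SE 0.193). Neither was called. None of the carriers that serve haem and iron was called. Slc25a37 and Slc25a28, the mitoferrins that import iron, had 0.18 and 0.13 in GMP and 0.07 and 0.02 in MPP. Slc25a38, the glycine carrier of haem synthesis, had -0.11 (SE 0.174) in GMP and the lowest MPP value of the class, -0.57 (adjusted p = 0.396, SE 0.246), by the authors' deposited table. Slc25a39, a glutathione carrier, had -0.13 in GMP and -0.18 in MPP. The highest MPP value of the class, 0.28 (adjusted p = 0.683, SE 0.192), belonged to Slc25a27, which had 0.31 in GMP. Slc25a51, which imports NAD, had -0.01 in GMP and -0.20 (adjusted p = 0.478, SE 0.0959) in MPP. The citrate carrier Slc25a1 (0.03 in GMP and 0.07 in MPP) and the carnitine-acylcarnitine carrier Slc25a20 (-0.11 in GMP and -0.22 in MPP) were not called.

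**Figure D3:**
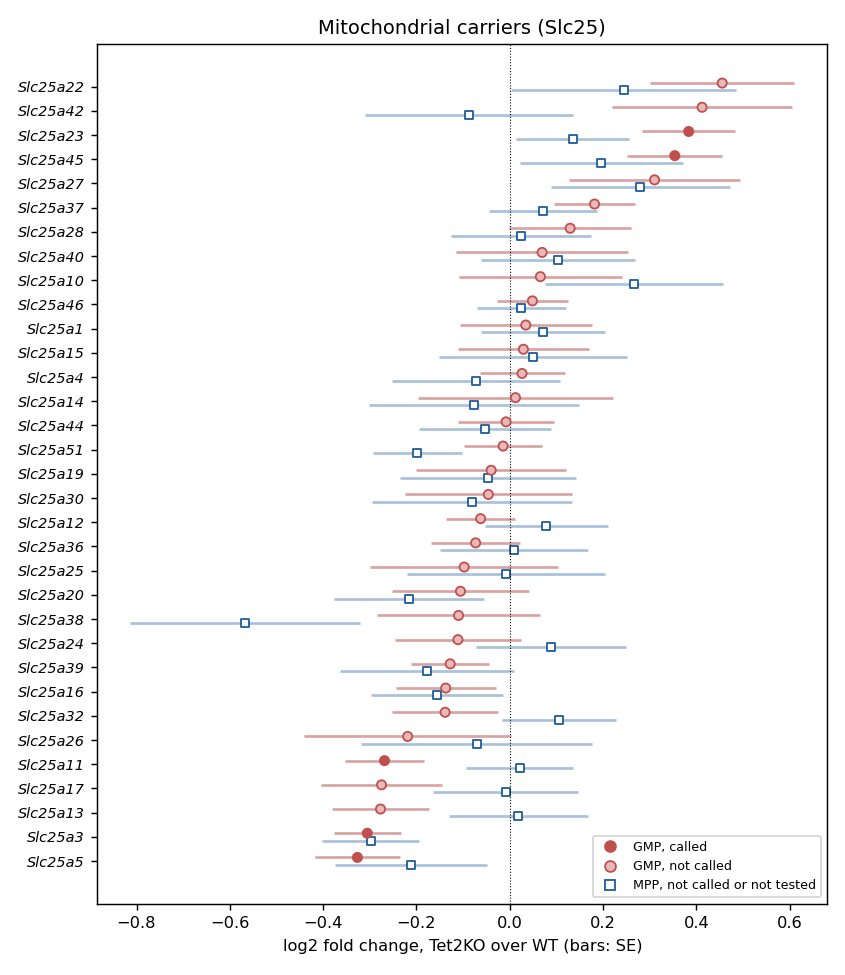
Log2 fold change (Tet2KO over WT) of the 33 mitochondrial carriers, ordered by their GMP value, with SE bars; red circles are GMP (filled where called) and blue squares are MPP. The called carriers lie toward both ends of the GMP order, Slc25a5, Slc25a3 and Slc25a11 below and Slc25a23 and Slc25a45 above.

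Of the 20 amino acid and peptide transporters, Slc6a15 was the member that rose in GMP, out of 17 tested. Their median was 0.054 in GMP, with 13 above and 7 below 0, and -0.0048 in MPP. The glutamine transporters Slc1a5 (-0.01 in GMP and -0.01 in MPP), Slc38a1 (-0.00012 in GMP and 0.0044 in MPP) and Slc38a2 (0.01 in GMP and -0.02 in MPP) had SEs between 0.0535 and 0.126, so that their 95% intervals in GMP reached at most 0.26 from 0. Slc3a2, the heavy chain that brings its partners to the cell surface, had 0.04 in GMP and 0.07 in MPP. Of these partners, Slc7a5, the main importer of large neutral amino acids, had -0.20 in MPP (SE 0.158) and in GMP -0.03 without a p. Slc7a8, a second light chain, had the lowest value of the class in GMP, -0.28 (adjusted p = 0.0592, SE 0.0926), against 0.32 (adjusted p = 0.693, SE 0.223) in MPP, by the authors' deposited table. Slc38a9, the lysosomal arginine sensor of the mTORC1 pathway, had 0.12 in GMP and -0.0014 in MPP, and the lysosomal peptide and histidine transporter Slc15a4 had the lowest MPP value of the class, -0.24 (SE 0.220).

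Slc41a1 was also the member of the metal class that rose in GMP, among 21 tested of 22. The class had a median of -0.025 in GMP and -0.055 in MPP. The zinc importers of family Slc39 numbered 10, with 4 above and 6 below 0 in GMP (median -0.054) and 1 above and 9 below 0 in MPP (median -0.14). The 6 zinc exporters of family Slc30 had medians of -0.028 and -0.010. No member of either family was called. Slc39a6 had the smallest adjusted p among them in GMP, at 0.21 (adjusted p = 0.110, SE 0.0779), and Slc30a1, the exporter of the plasma membrane, had -0.16 in GMP and -0.41 (adjusted p = 0.457, SE 0.195) in MPP, by the authors' deposited table. The copper importer Slc31a1 had 0.01 in GMP and 0.05 in MPP, and Slc31a2, its endosomal relative, -0.01 in GMP and 0.45 (adjusted p = 0.459, SE 0.216) in MPP. Slc40a1, ferroportin, the iron exporter of macrophages and erythroid cells, had the lowest value of all members in both populations, -0.52 (SE 0.276) in GMP and -0.69 (SE 0.359) in MPP, but was marked as an outlier in both tables and has no p. The iron importer Slc11a2 had -0.02 in GMP and 0.12 in MPP.

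The 20 members classed with nucleotide sugars and acetyl-CoA (families Slc35 and Slc33) had no calls and medians of -0.038 in GMP and 0.039 in MPP. Carriers of nucleotide sugars load the Golgi and endoplasmic reticulum for glycosylation. Members were placed here by family number, and the substrate of each, such as Slc35f2 and Slc35g1, was not checked. Slc35f2 had the highest GMP value, 0.43 (adjusted p = 0.275, SE 0.212), and Slc35b2, which carries the sulfate donor PAPS, the lowest, -0.24 (adjusted p = 0.526, SE 0.173), by the authors' deposited table. In MPP the range ran from -0.34 (adjusted p = 0.279, SE 0.129) for Slc35a1, the carrier of CMP-sialic acid, to 0.37 (adjusted p = 0.428, SE 0.167) for Slc35g1. Slc35b4 had -0.08 in GMP and -0.24 (adjusted p = 0.347, SE 0.0969) in MPP. The GDP-fucose transporter Slc35c1, needed for selectin ligands on leukocytes, had 0.11 in GMP and 0.04 in MPP. Of 8 sugar transporters none was called. The glucose transporters Slc2a1 and Slc2a3 had 0.05 and -0.13 in GMP and -0.24 and -0.20 in MPP. The extremes were Slc50a1 (0.10) and Slc37a1 (-0.20) in GMP, and Slc37a1 (0.29) and Slc45a4 (-0.26) in MPP.

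The 10 transporters of organic acids and lipids had the lowest class median in MPP, -0.15, with 7 of 10 below 0, and -0.075 in GMP. The lactate and pyruvate transporter Slc16a1 had -0.19 (adjusted p = 0.232, SE 0.0878) in GMP, and its relatives Slc16a7 and Slc16a4 stood at the ends of the class in both populations, Slc16a7 with -0.33 (adjusted p = 0.142, SE 0.133) in GMP and -0.39 (adjusted p = 0.527, SE 0.206) in MPP, and Slc16a4 with 0.46 (adjusted p = 0.125, SE 0.176) and 0.42 (adjusted p = 0.527, SE 0.221), by the authors' deposited table. The 17 inorganic ion transporters had medians of 0.021 in GMP and 0.039 in MPP. Slc12a2, which brings sodium, potassium and chloride into the cell, had the lowest GMP value of these, -0.26 (adjusted p = 0.212, SE 0.115), and the sulfate transporter Slc26a1 the highest, 0.38 (adjusted p = 0.557, SE 0.287). Slc26a1 was highest in MPP too (0.32), and the anion exchanger Slc4a2 lowest (-0.23), by the authors' deposited table.

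Of 5 nucleoside and nucleobase transporters, Slc29a3, of lysosomes, had 0.23 (adjusted p = 0.187) in GMP, and Slc28a2, a sodium-coupled importer, had -0.04 in GMP and 0.23 (adjusted p = 0.419, SE 0.105) in MPP. Slc29a1, the equilibrative transporter through which nucleoside drugs such as cytarabine enter cells, had 0.02 in GMP and -0.32 (adjusted p = 0.330, SE 0.126) in MPP, and Slc29a2 had 0.16 and 0.27, by the authors' deposited table. The 17 vitamin and organic ion transporters had medians of -0.076 in GMP and 0.041 in MPP. The 5 members of family Slc22 among them all lay below 0 in GMP, from -0.20 for the carnitine transporter Slc22a5 to -0.11 for the ergothioneine transporter Slc22a4, and 4 of them above 0 in MPP. None of the 5 was called. Slc22a15 had the highest MPP value of the class, 0.58 (adjusted p = 0.116, SE 0.177), and Slc44a1, a choline transporter, the lowest, -0.37 (adjusted p = 0.708, SE 0.271). In GMP the lowest was that of the haem transporter Slc48a1, -0.23 (adjusted p = 0.0718, SE 0.0779), and the highest that of the urea transporter Slc14a1, at 0.41 (SE 0.259) and marked as an outlier, all by the authors' deposited table. The 4 members that are not carriers ran from -0.30 (Slc9a3r1, a scaffold protein) to 0.47 (Slc2a4rg-ps, a pseudogene) in GMP, and from -0.16 to 0.21 for the same 2 in MPP.

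The change itself differed between populations for none of the 148 members tested in both tables, when the MPP value was subtracted from the GMP value and p-values were adjusted over 17660 genes. Over all genes 0.0453% passed. At an unadjusted p under 0.05 there were 7 members, 4.73% of the members tested, against 3.58% of all genes tested and 4.53% of those with a mean of at least 50 (412 of 9102). The smallest p belonged to Slc18a2, the vesicular monoamine transporter that stores histamine and serotonin in mast cells and basophils. It had -0.20 (SE 0.119) in GMP and 0.48 (adjusted p = 0.120, SE 0.151) in MPP, by the authors' deposited table, a difference of -0.68 (SE 0.193, 95% interval -1.06 to -0.31, adjusted p = 0.293). Of the mast cell and basophil markers tested, 3 of 6 were lower in GMP, against 2.22% of all genes, and none of 5 was called in MPP. The list of 14 summed to 1295 ppm in GMP and 1002 ppm in MPP. These sums include Kit, on which both populations were sorted. Kit had the highest mean of the list in both, 6397 in GMP and 7542 in MPP, so the sums are no measure of mast cells alone. Slc18a2 itself held 86.0 ppm in GMP and 179.9 ppm in MPP. Of the list, 4 genes in GMP and 3 in MPP were marked as outliers. Among them were Cpa3, with a mean of 3549 in GMP and 509.7 in MPP, and Ms4a2. The log2 fold change of Ms4a2 was -1.28 in GMP and -0.61 in MPP by the authors' deposited table. Tpsab1 had a mean under 1 in both, as had 2 more of the list in MPP. The part of these cells in the value of Slc18a2 was not tested. Slc35a1 went the other way, with 0.24 (SE 0.116) in GMP and -0.34 (SE 0.129) in MPP, a difference of 0.58 (SE 0.174, 95% interval 0.24 to 0.92, adjusted p = 0.365). The differences were -0.70 (SE 0.248, 95% interval -1.19 to -0.21, adjusted p = 0.936) for Slc22a15 and -0.60 (SE 0.241, 95% interval -1.07 to -0.12, adjusted p = 1.00) for Slc7a8. Slc39a6, Slc25a11 and Slc37a1 made up the rest, with differences of 0.24, -0.29 and -0.49. The test treats both SEs as unrelated, although most mice gave both populations. With errors taken as correlated at 0.346, the correlation of both statistics across genes, Slc18a2 (adjusted p = 0.0114) and Slc35a1 (adjusted p = 0.0170) passed. That value also holds changes shared by both populations, so it may exceed the correlation of the errors, which was not measured. These 2 passes are therefore not counted as calls.

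**Figure D4:**
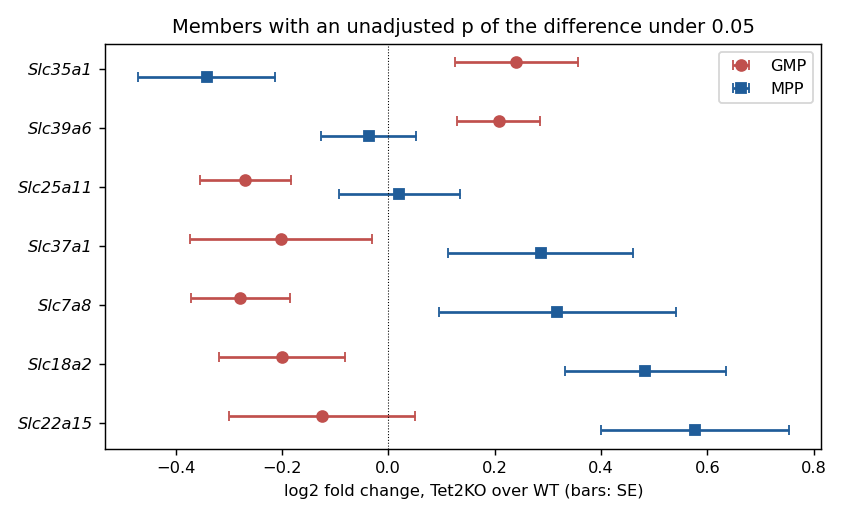
Log2 fold change (Tet2KO over WT) with SE bars in GMP (red circles) and MPP (blue squares) for the 7 members whose difference between populations had an unadjusted p under 0.05. In Slc35a1 and Slc39a6 the GMP value is the higher one, and in the other 5 it is the lower one; none passed after adjustment over all genes with errors taken as independent.

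Levels between genes were compared as ppm per kilobase of exon. By this measure Slc25a5 was the highest member in both populations, at 234 in GMP and 153 in MPP. Slc25a3 (67.5 and 56.8), Slc38a2 (62.4 and 66.3) and Slc35a4 (54.4 and 43.5) followed, then Slc7a5 in GMP (48.98) and Slc22a3, a transporter of organic cations, in MPP (43.1). All 156 members together held 8730 ppm in GMP and 8967 in MPP. The tables were normalized separately, so a level set across them is a description. On the share of the summed means, the members most shifted to GMP were Slc22a4 (4.49-fold GMP over MPP), Slc24a6 (2.51), Slc31a2 (2.28), Slc16a1 (1.97) and Slc7a8 (1.72). Those most shifted to MPP were Slc35f2 (0.307-fold GMP over MPP), Slc30a4 (0.331), Slc25a27 (0.349), Slc22a3 (0.368) and Slc12a7 (0.396).

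The 4 members that rose in GMP all had a larger share in MPP than in GMP, with GMP over MPP ratios of 0.576 (Slc6a15), 0.608 (Slc41a1), 0.622 (Slc25a23) and 0.689 (Slc25a45). The 3 that fell had ratios of 1.53 (Slc25a5), 1.19 (Slc25a3) and 1.01 (Slc25a11). A larger share in MPP was the more common case: 5949 of all 9536 genes with such means had it, and their median log2 ratio over all 9536 was -0.11. Across the 156 members the log2 ratio and the log2 fold change in GMP were related with r = -0.321 (Pearson) and rho = -0.272 (Spearman). Over all 9536 genes with such means it was r = -0.299 and rho = -0.327, so the members' relation was of the size found over all genes. The median log2 fold change in GMP was -0.043 for the 70 members with the larger share in GMP and 0.029 for the 86 with the larger share in MPP. Both axes use the same GMP libraries, and genes are not independent replicates. For the log2 fold change in MPP r was -0.114 over the members and -0.0939 over all genes.

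**Figure D5:**
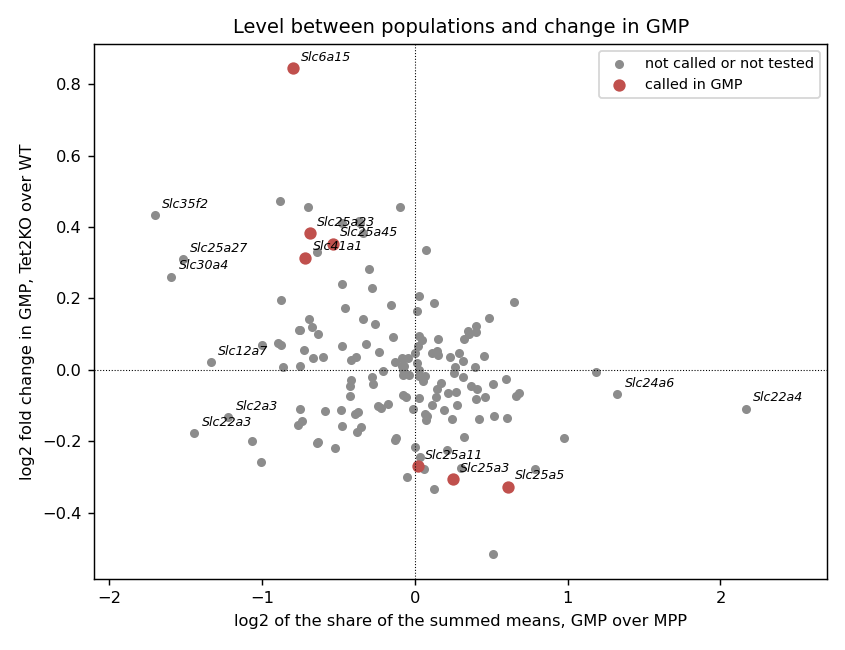
Each point is 1 of the 156 members: the horizontal axis is the log2 ratio of its share of the summed means, GMP over MPP, and the vertical axis its log2 fold change in GMP (Tet2KO over WT). The 4 called members that rose lie left of 0 (larger share in MPP) and the 3 that fell lie right of 0.

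Markers of other cells moved in GMP as well. Beside the counts below, 3.96% of all genes tested were called in GMP, 1.75% higher and 2.22% lower, and 0.616% in MPP. Of 11 tested monocyte and macrophage markers 5 were higher, and of 9 megakaryocyte and platelet markers 4 were higher. Of 6 mast cell and basophil markers 3 were lower, and of 10 primary granule markers 3 were lower. Of 13 multipotent progenitor markers 1 was higher and 2 lower. Monocyte markers summed to 833 ppm and mast cell markers, the sorting marker Kit included, to 1295 ppm over both genotypes. Of 6 late neutrophil markers 1 was higher and 1 lower, of 5 stromal and endothelial markers 1 was higher, and of 3 B cell and 3 T and NK cell markers none was called. In MPP 1 of 10 megakaryocyte markers, 1 of 13 multipotent progenitor markers and 2 of 4 stromal and endothelial markers were higher, and 1 of 5 B cell markers was lower. The stromal and endothelial genes called were Pdgfrb in GMP (mean 482) and Pdgfrb (751) and Tie1 (337) in MPP. Others of that list were nearly absent: Col3a1 and Pdgfra had means under 1 in both populations, and Col1a1 in MPP. Of 15 erythroid markers 11 were marked as outliers in GMP and 9 in MPP, and the list summed to 459 ppm in GMP and 700 ppm in MPP. Car2 had means of 2036 in GMP and 4078 in MPP, and Car1 of 1578 and 1064, while Hba-a1 and Hba-a2, near-identical alpha-globin genes, were listed at 0 in both. Sums per genotype are not part of the tables. The part of these cells in the changes of Slc6a15, Slc18a2, Slc40a1 and the other members was not tested.

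Other genes of transport and of the pathways that carriers serve were counted from lists, here and in the next paragraph. Over all genes tested, 3.96% were called in GMP and 0.616% in MPP. The lists with 1 call in GMP lie near that share. Of 32 tested solute carriers with other symbols 1 was called in GMP, Spns2, the exporter of sphingosine-1-phosphate, which fell by 0.25 (adjusted p = 0.0207, SE 0.0717) by the authors' deposited table. In MPP none of 31 was called, and the organic anion transporters Slco3a1 and Slco4a1 had 0.26 and 0.41. Of 21 ABC transporters 1 fell in GMP, Abcc4, an exporter of cyclic nucleotides and drugs, with -0.36 (adjusted p = 0.000306, SE 0.0758), and none of 22 was called in MPP. Of 22 ion pumps and mitochondrial calcium uniporter genes 1 rose and 4 fell in GMP. Mcu, the pore of the mitochondrial calcium uniporter, fell by 0.57 (adjusted p = 0.00366, SE 0.138) by the authors' deposited table. The reticulum calcium pump gene Atp2a3 (-0.27) and Atp1b1 (-0.78), a subunit of the sodium pump, fell as well, and the copper pump gene Atp7a rose (0.39). In MPP none of 21 was called. Slc24a6, the sodium-calcium exchanger of mitochondria (now Slc8b1), had -0.07 in GMP and -0.16 in MPP, and was not called.

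Of 19 tested amino acid response genes, a list that holds Atf4 itself and Eif2ak4 besides targets of ATF4, 1 was called in GMP. Asns, asparagine synthetase, fell by 0.38 (adjusted p = 0.0217, SE 0.111) by the authors' deposited table, and the median of the list was -0.069 in GMP and -0.13 in MPP, where none of 20 was called. Of 20 genes of iron, haem and zinc handling 1 rose and 2 fell in GMP, and 1 of 18 fell in MPP. The metallothionein gene Mt1 rose by 0.50, while Ncoa4, which delivers ferritin for breakdown, fell by 0.32 and Fech, the last enzyme of haem synthesis, by 0.36 in GMP, by the authors' deposited table. In MPP the ferritin light chain gene Ftl1 fell by 0.37 (adjusted p = 0.00942, SE 0.0893). Slc25a37, Slc25a28, Slc40a1, Slc11a2 and Slc48a1, which move iron or haem, were not called in either population, Slc40a1 for want of a p.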

How the data were processed

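RNA was measured in 16 libraries, 4 per genotype and population. RNA was amplified from small inputs before library preparation, per the labels' protocols. The submitters' processing notes name STAR, DESeq2 and mm10 without versions. How reads were counted, and with which annotation, is not given there. The authors' deposited tables, 1 per population, hold per gene the mean normalized signal over its 8 libraries, the log2 fold change (Tet2KO over WT), its SE (on the log2 scale, a score without a fixed range), a p-value and an adjusted p-value. The deposited p-values were used as they are, with a call at an adjusted p of 0.05. Genes with a mean under 10 or marked as outliers have no adjusted p. Depth per library is unknown; precision is given by the SE, whose median over the members was 0.124 in GMP and 0.161 in MPP. The fold changes and SEs have the form of estimates shrunken towards 0, a setting no source states: among genes with a mean above 0 and under 1 the median SE was 0.145 in GMP and 0.143 in MPP, and no SE in the tables exceeded 0.359 and 0.388. If they were shrunken, changes of weakly expressed genes are understated. The test between populations rests on these values.

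Members and lists were chosen with earlier results of these data known. Substrate classes follow the family number, except for some genes placed apart from their family, such as Slc43a3 with the nucleoside and nucleobase transporters. For the difference between populations, the GMP value minus the MPP value was divided by the square root of the sum of both squared SEs. The quotient was tested against the normal distribution, two-sided, with Benjamini-Hochberg adjustment over all genes. A run on simulated data drew independent normal errors with the deposited SEs. Such data cannot show how the test behaves with shared mice, shrunken estimates or the wider spread of statistics in GMP, 1.35. Intervals are 1.96 SE to each side. No refit and no test across libraries was possible without values per library. The rule for named genes took every called member, the highest and lowest of each class, the 10 smallest p-values, the extremes of level and threshold, and called list genes; other members were named for their role, with their values seen. All 156 members matched a GENCODE M21 gene model. Promoters come from RefSeq (GRCm38.p6). Some genes are not reported here. The work used scipy 1.17.1, pandas 2.3.3, numpy 2.4.6 and matplotlib 3.10.9 under Python 3.11.15.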

Additional observations from a re-analysis of the deposited data

How the results depend on the processing

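No paired analysis was possible because the tables hold no values per library; leaving out single libraries was not possible for the same reason. The 7 calls in GMP became 11 at an adjusted p of 0.1, 3 at 0.01, and 0 when each statistic was divided by its robust spread over all tested genes (1.35). The count was 6 after recentring on the median, 6 when p-values were adjusted over all genes with a p-value, 10 with a minimum mean of 10, which adds Slc35d3, Slc10a1 and Slc6a9, all higher, and 6 with a minimum mean of 200. Slc25a11 lost its call after recentring (0.0549) and under the wider adjustment (0.0702), the others passed under both. In MPP no member was called under any of these settings. The difference between populations passed for 2 members with errors taken as correlated at 0.346, which may be too high, and for 0 under the other settings. Of 98 class medians under alternatives 97 moved by less than the median SE of their members. That bound is the error of a gene, not of a median, so a change of sign can fall within it. In MPP the nucleotide sugar class went from 0.039 to -0.074 with a minimum mean of 200. Part of the count was fixed in advance. Keeping only carriers leaves each carrier class as it was, and recentring shifts all medians of a population alike. The sugar class in MPP moved to -0.22 with a minimum mean of 200, which leaves 4 of its 8 members. The medians of all genes used for recentring were -0.0103 in GMP and -0.00934 in MPP.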

Other observations

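Below the minimum mean, 3 further Slc genes were called in GMP, all higher in Tet2KO, and they are named because they complete the count of called Slc genes. Slc35d3, a gene of the nucleotide sugar family known from mouse platelet dense granules, had 1.35 (SE 0.299, adjusted p = 0.000751) in GMP at a mean of 19.96, and -0.08 (SE 0.272, adjusted p = 0.962) in MPP at a mean of 118, in the authors' deposited table. Slc10a1, the bile acid transporter of liver, had 0.97 (SE 0.270, adjusted p = 0.0162) in GMP at a mean of 34.34, and 0.67 (SE 0.268, adjusted p = 0.340) in MPP at a mean of 44.3. Slc6a9, a glycine transporter that erythroid cells use for haem synthesis, had 1.07 (SE 0.325, adjusted p = 0.0307) in GMP at a mean of 14.38, and 0.38 (SE 0.334, adjusted p = 0.782) in MPP at a mean of 19.7. In GMP these log2 fold changes exceed that of every member, but their means are low and they were set outside the group by level, not by change.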
